A study of Homo sapiens with 30 samples.

Results

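Ligands of the EGF receptor, the receptors they bind and the feedback inhibitor ERRFI1 were followed in bronchial epithelial cells after contact with whole birch pollen. The genes were chosen by name: the ligands EREG, AREG, HBEGF, TGFA, BTC and EPGN, the receptors EGFR, ERBB2 and ERBB3, and ERRFI1. They are 10 of the 24537 gene symbols of the arrays that the RefSeq gene table also holds, and they are measured by 17 of the 58201 probes. Of these 17 probes, 15 passed the filter on dim signals, so that 9 of the 10 genes were tested, among 32141 probes in all. EPGN was not, since its only probe was well above background on 1 of 30 arrays.

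The cells are BEAS-2B, an immortalized human bronchial epithelial line, grown at the air-liquid interface, where the apical side faces air. Whole birch pollen, 10 mg loaded per exposure, was dispersed by a pulse of air in a sedimentation chamber and settled on them (pollen). The paper reports that part of the load was lost to the chamber, so the cells received less. Control cells went through the same steps behind a mesh that holds pollen back (air). By the paper, handling without pollen already raised EREG, DUSP5 and DUSP6 at 2h25min against cells that stayed in the incubator. No such incubator cells are among the samples. RNA was taken after 10 min, 55 min, 2h25min, 6h50min and 24 h, with 3 one-colour Agilent arrays for each exposure and time. All groups share the same line and BEGM, a bronchial medium whose supplements include EGF, and no second line or primary cell was measured. The labels number the samples of a group, but do not say whether they came from separate cultures. The methods state that cell exposures were repeated independently at least 3 times, on different days. They do not link the sample numbers to these days, and p-values measure the spread between these samples.

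On the 30 arrays, 44.67% to 59.32% of probes were well above background and 0 spots were saturated. The epithelial markers KRT5, KRT7, KRT8, KRT14, KRT18, KRT19, CDH1 and EPCAM were above background on all 30 arrays and TP63 on 21, while the endothelial marker PECAM1 and the fibroblast marker COL3A1 were above background on 0. The leukocyte genes CD14 and PTPRC, the endothelial gene CDH5 and the mesenchymal genes VIM, ACTA2 and COL1A1 were also detected on all 30, and CD3E of T cells on 17. Of the markers of ciliated and secretory airway cells, FOXJ1 was above background on 8 arrays, MUC5AC on 27 and SCGB1A1 on 29. The pollen replicate 1 array at 55 min stands apart: it lay alone on its slide and is of another array design. All arrays of 6h50min lay on 1 slide of their own, so that steps into and out of 6h50min cannot be told apart from the slide. The arrays of 10 min and of 24 h share no slide, and are linked only through slides that hold other times. The pollen arrays of 10 min and of 55 min share no slide either. Pollen and air at 10 min, 6h50min and 24 h were each compared within 1 slide.

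Ligands of the EGF family are made as membrane-bound precursors that ADAM proteases cut free, so that a cell can stimulate itself or its neighbours. AREG and TGFA bind EGFR, and EREG, HBEGF and BTC bind both EGFR and ERBB4. ERBB2 has no ligand and pairs with the other receptors, and ERBB3 binds neuregulins and signals mainly through its partner. Active receptors drive the RAS and ERK cascade, which induces transcription of several of the ligands as well as inhibitors of the pathway. ERRFI1, also called MIG6, is such an inhibitor and binds the EGFR kinase domain. In airway epithelium, EGFR ligands are known from wound repair and mucus production.

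In the GRCh38.p14 gene table, EPGN, EREG, AREG and BTC lie on chromosome 4 within 486 kb, in this order. The 250 bases before the start of EREG (chr4:74364895-74365144, plus strand) and AREG (chr4:74444886-74445135, plus strand) are shown as examples. Both genes, like HBEGF and ERRFI1, were higher on all pollen arrays at 2h25min. Capitals mark the motif matches described after them.
EREG promoter: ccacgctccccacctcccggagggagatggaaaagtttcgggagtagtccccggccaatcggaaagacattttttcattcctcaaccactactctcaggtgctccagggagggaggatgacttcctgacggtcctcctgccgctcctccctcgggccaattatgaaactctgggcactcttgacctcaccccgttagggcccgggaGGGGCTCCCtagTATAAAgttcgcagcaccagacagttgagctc
AREG promoter: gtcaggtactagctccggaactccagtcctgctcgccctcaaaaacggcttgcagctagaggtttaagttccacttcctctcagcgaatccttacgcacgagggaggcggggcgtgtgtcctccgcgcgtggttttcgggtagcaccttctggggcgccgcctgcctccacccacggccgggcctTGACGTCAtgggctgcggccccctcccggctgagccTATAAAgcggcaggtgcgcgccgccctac

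The AREG window holds TGACGTCA, the cyclic AMP response element (CRE) and its own reverse complement, at 65 bases before the start. This motif is in 1.65% of the 35116 promoter windows of the same length. The EREG window holds an NF-kB motif (GGG, a purine, any base, a pair of pyrimidines and CC) at 44 bases before the start, a motif present in 10.8% of windows. Both hold TATAAA, at 32 bases before the start in EREG and 29 in AREG, as do 10.7% of windows. The AP-1 motif TGANTCA and the CArG box, found in 6.57% and 1.16% of windows on either strand, were not in these stretches. The windows of HBEGF and ERRFI1 held none of the 5 motifs searched. That of EGFR (chr7:55109589-55109838, plus strand) held AP-1 and TATAAA matches, that of ERBB2 an AP-1 match and that of EPGN TATAAA. Genes can have several starts, and whether the window of a gene lies before its main start was not checked. Windows were found for 9 of the 10 genes, ERBB3 having none in the table. A match describes letters and is not evidence of binding.

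Probes of 60 bases measured the genes. The probe of EREG lies on chromosome 4 from 75254009 to 75254068, that of HBEGF on chromosome 5 from 139713052 to 139713111 and that of ERRFI1 on chromosome 1 from 8072208 to 8072267 (hg19). AREG has 2 probes, on chromosome 4 from 75320518 to 75320577 and from 75318293 to 75318352. The second AREG probe and the brighter TGFA probe, on chromosome 2 from 70683472 to 70683531, are shown as examples of the sequences that were measured.
AREG, second probe: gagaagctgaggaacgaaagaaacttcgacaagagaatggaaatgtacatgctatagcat
TGFA, brighter probe: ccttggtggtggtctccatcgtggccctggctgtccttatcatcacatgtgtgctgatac

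At 2h25min, EREG, AREG, HBEGF and ERRFI1 were higher on every pollen array than on every air array, with log2 fold changes of 0.52 to 1.08. None of the 9 tested genes passed the adjusted threshold across all probes in the reported fit, which does not pair samples. EREG came closest, with an adjusted p of 0.058. In the fit that pairs pollen and air samples of the same replicate number at each time, EREG and AREG passed, 2 of 9 where that fit called 0.137% of all probes. The receptors EGFR, ERBB2 and ERBB3 and the ligands TGFA and BTC overlapped between exposures at this time.

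EREG encodes epiregulin. Its log2 signal, given relative to the 75th percentile of each array, was 0.36, 0.14 and -0.22 on the pollen arrays at 2h25min. On the air arrays it was -0.81, -1.30 and -0.86. The lowest pollen value thus lay above the highest air value. The log2 fold change was 1.08 ± 0.20 (SE, n = 3 per group; 95% interval 0.66 to 1.51), which is 2.12-fold, and pollen was higher in 3 of 3 pairs. The limma test gave an unadjusted p of 2.53e-05 and an adjusted p of 0.058. With pairs of the same number at each time as a block the SE was 0.14 and the adjusted p from limma was 0.00961. In bulk RNA, more RNA per cell and a larger share of cells with the RNA cannot be told apart.

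The EREG difference was smaller at the times before and after. At 10 min the arrays of both exposures lay together, at -1.72, -1.51 and -1.59 with pollen and -1.57, -1.45 and -1.61 with air. At 55 min the pollen arrays had -0.89, -0.77 and -0.31 and the air arrays -1.6, -1 and -0.89, a log2 fold change of 0.51 ± 0.20 (SE, n = 3). The lowest pollen array and the highest air array were level, and the adjusted p from limma was 0.919. Without air replicate 1 at 55 min the value was 0.29, and without pollen replicate 3 it was 0.33. At 6h50min pollen gave -0.82, -1.06 and -0.62 against -0.99, -1.37 and -1.10. At 24 h it gave -1.70, -1.65 and -1.34 against -1.50, -1.64 and -1.01, and the groups overlapped at both times.

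**Figure D1:**
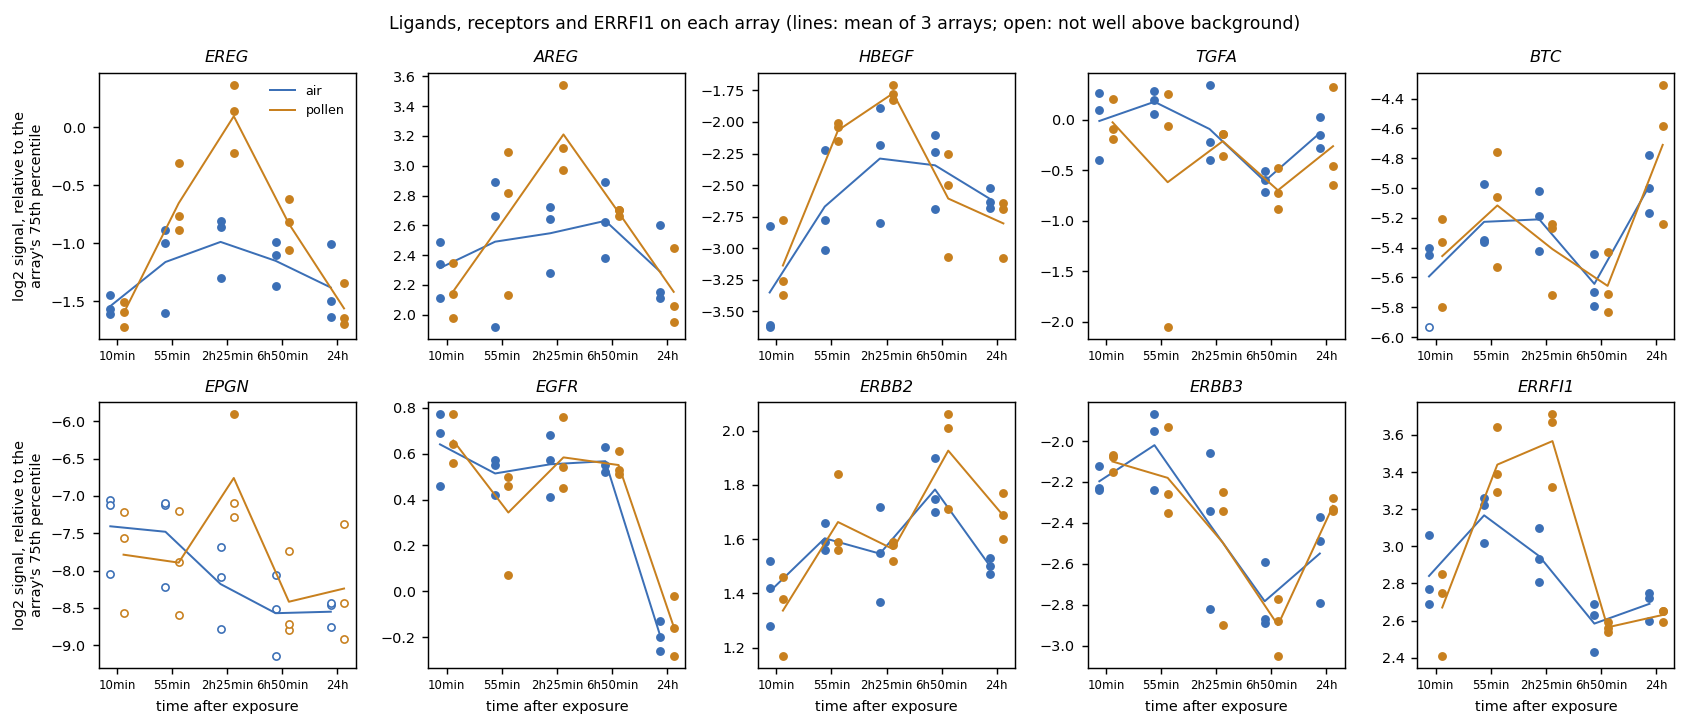
Log2 signal of each gene on each of the 30 arrays (y axis, relative to the 75th percentile of the array, with its own range in each panel) against time after exposure (x axis), with air in blue, pollen in orange, lines through the means of 3 arrays and open circles for spots not well above background. At 2h25min the pollen arrays of EREG, AREG, HBEGF and ERRFI1 lie above all air arrays, and EGFR is lower at 24 h in both exposures.

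AREG encodes amphiregulin. At 2h25min its log2 signal was 3.54, 2.97 and 3.12 with pollen and 2.72, 2.28 and 2.64 with air, so that the ranges did not overlap. The log2 fold change was 0.66 ± 0.24 (SE, n = 3; 95% interval 0.16 to 1.16), with an unadjusted p of 0.0118 and an adjusted p of 1 by limma. The second AREG probe gave 0.60 ± 0.25, again without overlap. With pairs of the same number at each time as a block the AREG value was 0.66 ± 0.10 and the adjusted p from limma was 0.0285, while with the number as a block over all times the adjusted p was 1. At the other times the AREG log2 fold change was between -0.16 and 0.19, and the exposures overlapped.

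HBEGF encodes the heparin-binding ligand of the family. At 55 min the pollen arrays had -2.15, -2.04 and -2.01 and the air arrays -3.01, -2.78 and -2.22. At 2h25min they had -1.71, -1.78 and -1.83 against -1.89, -2.80 and -2.18. All pollen arrays were above all air arrays at both times, and the pollen arrays lay closer together than the air arrays (SD 0.07 against 0.41 at 55 min, 0.06 against 0.46 at 2h25min). The log2 fold changes were 0.60 ± 0.25 and 0.52 ± 0.25 (SE, n = 3), with unadjusted p of 0.0269 and 0.0541 and adjusted p of 0.919 and 1 by limma. Without air replicate 2 the value at 2h25min was 0.26. At 6h50min it was -0.27 ± 0.25 and pollen was lower in 3 of 3 same-numbered samples, with overlapping groups. Without pollen replicate 3 at 6h50min the value was -0.04, without air replicate 1 it was -0.15, and without pollen replicate 1 or air replicate 3 it was -0.44.

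ERRFI1, the feedback inhibitor, had a log2 signal of 3.71, 3.67 and 3.32 with pollen at 2h25min and of 2.81, 3.10 and 2.93 with air. At 55 min the values were 3.39, 3.29 and 3.64 against 3.02, 3.22 and 3.26, and again no air array reached the lowest pollen array. The log2 fold change was 0.28 ± 0.13 at 55 min and 0.62 ± 0.13 at 2h25min (SE, n = 3; 95% interval 0.35 to 0.89 at 2h25min), with adjusted p of 0.919 and 0.117 by limma. Without pollen replicate 3 at 55 min the ERRFI1 value at that time was 0.18. At 6h50min it was -0.02 ± 0.13 and at 24 h -0.06 ± 0.13. All ERRFI1 pollen arrays thus lay above all air arrays at 55 min and 2h25min, though neither difference passed the adjusted threshold. With the percentile over own probes, which moved the median of all probes by -0.36, the value at 55 min was -0.14. The groups overlapped at 6h50min, when pollen arrays lay at 2.56, 2.54 and 2.59.

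Which arrays were used set whether a gene passed at 2h25min. Without pollen replicate 3 of that time, EREG had 1.24 with an adjusted p of 0.0395 and ERRFI1 0.74 with an adjusted p of 0.0416 by limma. EREG also passed with the slide as a block (adjusted p 0.0292 by limma). On the slide with replicates 1 and 2 of both exposures alone, its value was 1.30 ± 0.25 (adjusted p 0.0744 by limma).

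**Figure D2:**
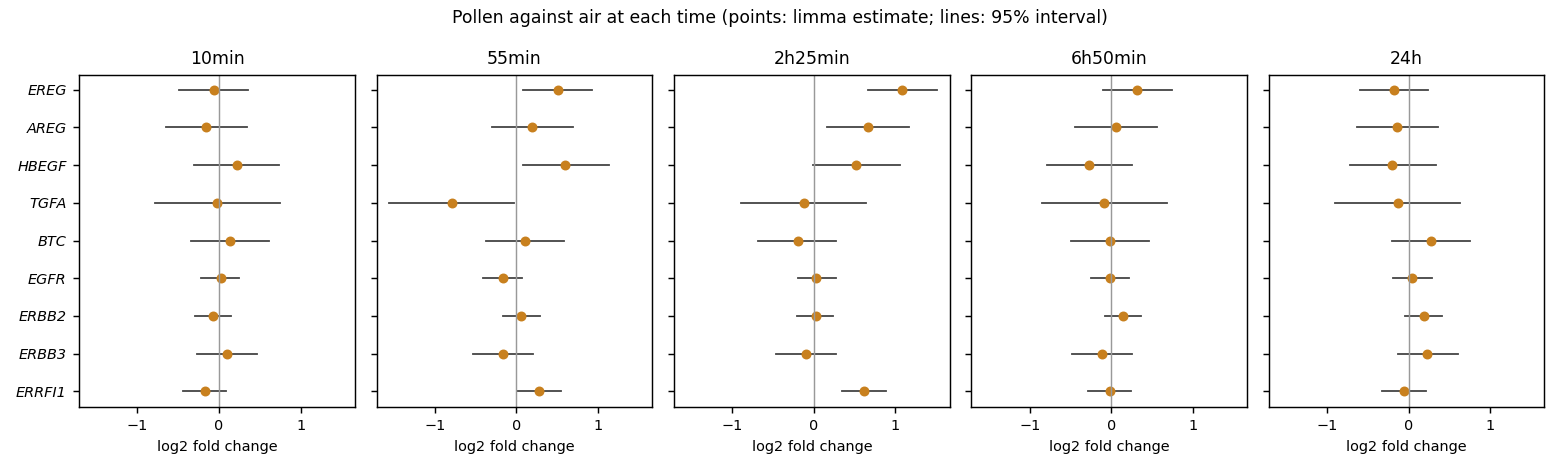
Log2 fold change of pollen against air (x axis) for the 9 tested genes (y axis) at each time, with points for the limma estimate and lines for its 95% interval. EREG at 2h25min (1.08) lies farthest from 0, and the intervals of EGFR, ERBB2 and ERBB3 include 0 at every time.

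The counts can be read against all probes as a description, since the genes were chosen with earlier results of these data known. At 2h25min, 0 of the 9 genes were called (adjusted p under 0.05 and at least 1.1-fold), against 0.0342% of all 32141 probes, and 3 had an unadjusted p under 0.05 by limma, against 2.98% of probes. All 3 pollen arrays lay above all 3 air arrays for 4 of 9 genes, against 2.85% of probes. At 55 min the same held for 2 of 9, HBEGF and ERRFI1, against 6.04% of probes, and at 24 h for 2 of 9, ERBB2 and ERBB3, against 5.33%. At 10 min, 55 min, 6h50min and 24 h, 0 of 9 were called, where 0%, 0.00311%, 0.0436% and 0.00311% of all probes were. At an unadjusted p under 0.05 there were 4 of the 9 at 55 min (EREG, HBEGF and ERRFI1 higher, TGFA lower) against 5.09% of probes. There were 0 at each of 10 min, 6h50min and 24 h, against 1.83%, 7.44% and 3.61%. The median log2 fold change of the 9 genes was 0.03 at 2h25min and that of all probes -0.03.

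TGFA encodes transforming growth factor alpha. At 55 min its brighter probe had a log2 signal of -2.05, -0.06 and 0.25 with pollen and of 0.06 to 0.28 with air. The low value was that of the array of the other design. The log2 fold change was -0.79 ± 0.37 (SE, n = 3) with this array and -0.08 without it. Without the same array, EREG had 0.62, AREG 0.47, HBEGF 0.64 and ERRFI1 0.30 at 55 min. Directions at 55 min also turned on its scaling: with each array's percentile over its own probes, which moved the median of all probes by -0.36, AREG had -0.22 and ERRFI1 -0.14, and in the deposited table, which moved it by -0.23, EREG had -0.13 and AREG -0.03. At the other times TGFA differed by -0.13 to -0.02. Its second probe was dim, between -7.01 and -5.52. BTC, which encodes betacellulin, was above background on 29 of 30 arrays with differences of -0.20 to 0.27, none of them called. EPGN, which encodes epigen, had its only spot well above background on a pollen array at 2h25min, at -5.91 on the same scale.

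The receptors did not differ detectably between exposures. EGFR had 95% intervals within -0.41 to 0.28 at every time, and its difference at 2h25min was 0.03 ± 0.11 (SE, n = 3). ERBB2 differed by -0.07 to 0.19 and ERBB3 by -0.16 to 0.23. At 24 h both lay higher on all pollen arrays than on all air arrays, by 0.19 ± 0.11 and 0.23 ± 0.17, with an adjusted p of 1 by limma. Without air replicate 3 at 24 h the ERBB3 value was 0.12. In the second probes the exposures overlapped at 24 h. Means with pollen and air were -3.16 and -3.19 for ERBB2, and -3.66 and -3.91 for ERBB3.

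Over time, early steps of EREG, HBEGF and ERRFI1 were called with pollen and not with air, but no difference between the exposures' steps passed the test. Neighbouring steps share the arrays of the time between them. The pollen arrays of 10 min and 55 min share no slide. With air, replicate 1 at 55 min lay on the slide of 10 min, at -1.6 for EREG against -1 and -0.89 on another slide. It was also the lowest air array of that time for HBEGF (-3.01) and ERRFI1 (3.02). The first step with pollen can be told apart from the slide only through that air array. From 10 min to 55 min, EREG rose by 0.95 ± 0.20, HBEGF by 1.07 ± 0.25 and ERRFI1 by 0.78 ± 0.13 on the log2 scale with pollen (SE, n = 3; adjusted p of 0.0276, 0.0478 and 0.00553 by limma). These 3 of 9 were called where 0.843% of all probes were. With air the same steps were 0.38, 0.68 and 0.32. By limma 0 of 9 were called with air, against 0.187% of probes, and 2 had an unadjusted p under 0.05, against 10.8% of probes. The ERRFI1 call held whichever of the 6 arrays was left out. The HBEGF call was lost without any 1 of them (adjusted p 0.0588 to 0.154), and the EREG call without any 10 min array or without pollen replicate 3 at 55 min (0.0606 to 0.108). With the slide as a block the 3 steps were 0.41, 0.60 and 0.58, with an adjusted p of 1 each by limma. The difference between the pollen effects at 55 min and 10 min was 0.57 ± 0.29 for EREG and 0.45 ± 0.18 for ERRFI1 (adjusted p 0.945 each by limma), with 0 of 9 genes and 0% of probes called and 1 gene, ERRFI1, at an unadjusted p under 0.05, against 3.77% of probes.

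From 55 min to 2h25min 0 of the 9 genes were called by limma, with pollen (0.208% of probes called) or with air (0.0156%), and 3 and 1 had an unadjusted p under 0.05, against 8.44% and 4.3% of probes. The EREG step was 0.75 ± 0.20 with pollen, where all arrays at 2h25min lay above those at 55 min, and 0.17 ± 0.20 with air. The pollen effect changed by 0.58 ± 0.29 for EREG, 0.46 ± 0.34 for AREG and 0.35 ± 0.18 for ERRFI1 between these times, again with 0% of probes called and 0 of 9 genes at an unadjusted p under 0.05, against 1.39% of probes.

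From 2h25min to 6h50min with pollen, EREG fell by 0.92, HBEGF fell by 0.84 and ERRFI1 fell by 1.01 on the log2 scale (adjusted p of 0.00197, 0.016 and 1.33e-05 by limma), and ERBB2 rose by 0.36. These 4 of 9 stand against 31% of all probes. With the percentile over own probes or in the deposited table only ERRFI1 passed. Without pollen replicate 3 at 6h50min HBEGF gave -0.61 (0.0971) and ERBB2 0.30 (0.0686), and without replicate 2 ERBB2 gave 0.32 (0.0665). The second AREG probe fell by 0.85 (adjusted p 0.0116 by limma), while the brighter probe gave -0.52 ± 0.24 (adjusted p 0.103 by limma). With air 1 of 9 was called, ERRFI1 at -0.36, against 32.5% of probes, and the call was lost without air replicate 2 or 3 of either time (adjusted p 0.0574 to 0.167). Pollen and air shared slides at each of these times, and the difference of their steps was -0.64 ± 0.18 for ERRFI1, -0.76 ± 0.29 for EREG, -0.78 ± 0.36 for HBEGF and -0.60 ± 0.34 for AREG (SE, n = 3 per group). Unadjusted p were 0.00186, 0.0152, 0.0403 and 0.0902 in this order by limma, and adjusted p were 0.746 or more. Of the 9 genes 0 were called, as were 0.00311% of all probes.

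From 6h50min to 24 h the change that both exposures showed most clearly was in EGFR. Its log2 signal was 0.52 to 0.63 with air and 0.51 to 0.61 with pollen at 6h50min. At 24 h it was -0.26, -0.20 and -0.13 with air and -0.28, -0.16 and -0.02 with pollen. No array at 24 h reached the lowest array at any other time with either exposure, which was 0.07 (the array of the other design). The EGFR step was -0.76 ± 0.11 with air and -0.70 ± 0.11 with pollen (adjusted p of 2.81e-05 and 8.58e-05 by limma). From 10 min to 24 h it was -0.84 and -0.81, and -1.01 and -0.99 with the slide as a block. A second EGFR probe, designed on a short transcript, gave -0.81 with air and -0.72 with pollen for the last step. Another EGFR probe, dimmer at a mean log2 signal of -5.19, gave 0.21 with air and -0.37 with pollen and was not called.

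Markers of cell types moved in the same step, in which 40.5% of all probes were called with air and 36.2% with pollen. Markers counted as falling or rising were called. Of 9 epithelial markers, 4 fell with air (KRT5 by 2.23, KRT19 by 1.07, KRT7 by 1 and CDH1 by 0.45 on the log2 scale) and 3 with pollen (KRT5 by 1.91, KRT7 by 0.94 and CDH1 by 0.41), and 0 rose. KRT5 was 1.70 to 1.96 with air and 1.77 to 2.19 with pollen at 6h50min, and -0.90 to 0.12 and -0.32 to 0.34 at 24 h. The summed signal of the 9, in multiples of the 75th percentile, was 220 to 242 with air and 225 to 291 with pollen at 6h50min, and 138 to 180 and 152 to 182 at 24 h. Of 4 mesenchymal markers ACTA2 rose, by 1.79 with air and 1.55 with pollen, and their summed signal was 63.9 to 67.8 at 6h50min and 72.4 to 83.9 at 24 h with air, and 60.8 to 71.3 and 75.3 to 90.2 with pollen. Of 3 leukocyte markers CD3E and PTPRC rose with both exposures, and of 3 ciliated or secretory markers SCGB1A1 rose with pollen, all of them dim. The endothelial PECAM1 and the mesenchymal COL3A1 were not well above background on any array. The part of these markers in the EGFR fall was not tested. At 2h25min pollen and air overlapped in all 21 markers.

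In the last step 3 of 9 genes were called with air (EGFR, ERBB2 lower by 0.28 and BTC, which rose by 0.66) against 40.5% of probes. With pollen 4 were called (EGFR, EREG, which fell by 0.73, BTC, which rose by 0.94, and ERBB3, which rose by 0.58) against 36.2%. Second probes went the other way in this step: that of ERBB2 rose by 0.72 with air (adjusted p 0.00157 by limma), and that of ERBB3 had -0.29 with pollen (adjusted p 0.136). The EGFR and EREG calls held whichever array was left out. With the percentile over own probes or in the deposited table the pollen calls of this step were lost, EGFR at -0.74 and -0.56 (adjusted p 0.0529 and 0.116 by limma), while the EGFR call with air held under every alternative. The calls of BTC and ERBB2 with air and of ERBB3 with pollen did not: they were lost without air replicate 1 or 2 at 6h50min or 2 or 3 at 24 h (BTC, 0.0535 to 0.0926), without any array but air replicate 2 at 6h50min (ERBB2, 0.0637 to 0.162), and without pollen replicate 3 at 6h50min (ERBB3, 0.0518). BTC with air had -0.17 after normexp background correction. At 24 h against 10 min, 3 were called with air (EGFR, HBEGF and BTC) against 37.5% of probes. With pollen 3 were called (EGFR, ERBB2 and BTC) against 35.3%. With the slide as a block EGFR alone was called with either exposure, and HBEGF and BTC with air gave 0.19 and 0.18. These 2 air calls were also lost without air replicate 2 or 3 at 10 min or 2 at 24 h (adjusted p 0.05 to 0.19 by limma), and BTC without replicate 3 at 24 h (0.133). With pollen, BTC was lost without replicate 3 of either time (0.0892 and 0.0916), and ERBB2 without replicate 1 at 10 min or 3 at 24 h (0.088 and 0.0577). The shares of genes called were near those of all probes. The pollen effect did not change detectably from 6h50min to 24 h, with 0 of 9 genes and 0% of probes called and 0 genes at an unadjusted p under 0.05 by limma, against 5.15% of probes. Probes of 1 receptor moved apart in time: from 10 min to 24 h the second ERBB2 probe rose by 1.35 with air and 1.55 with pollen where the brighter one had 0.10 and rose by 0.35. The second ERBB3 probe fell by 0.80 with air and fell by 0.52 with pollen.

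Of the other genes of EGF receptor signalling, a list of 52, chosen with earlier results of these data known, gave 48 tested genes. At 2h25min 2 of the 48 were called, DUSP6 and DUSP5, both higher, against 0.0342% of all probes. Both encode phosphatases of the ERK branch and are induced by ERK signalling. DUSP6 had 1.66, 1.78 and 1.40 with pollen and 0.50, 0.26 and 0.71 with air, a log2 fold change of 1.13 ± 0.16 (SE, n = 3; adjusted p 0.00496 by limma). DUSP5 had -0.18, -0.09 and -0.31 with pollen and -1.57, -2.07 and -1.14 with air, a log2 fold change of 1.40 ± 0.24 (adjusted p 0.0272 by limma). In both, no air array reached the lowest pollen array. Without air replicate 2 at this time, or without pollen replicate 1 or 2, neither passed (adjusted p 0.0562 to 0.296 by limma), and without air replicate 1 DUSP5 did not (0.144). Neither passed with the percentile over own probes, in the deposited table or with only the 6 arrays compared, at 1.11 to 1.43. With pairs of the same number at each time as a block 4 passed, with IER3 and MYC added.

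By role, the 9 tested genes that restrain RAS and ERK (dual-specificity phosphatases, Sprouty and SPRED proteins) were all on the higher side at 2h25min, at 0.23 to 1.40. Of 10 transcriptional targets, 9 were on that side, with a median of 0.72. IER3, at 1.08, and MYC, at 1.07, were named after their values were seen, and had adjusted p of 0.0587 and 0.0588 by limma. Genes of the kinase cascade had a median of -0.07 and lay between -0.16 and 0.18, and none of the 4 proteases and cofactors that release the ligands (ADAM10, ADAM17, RHBDF1, RHBDF2) exceeded 0.16. In all, 38 of 48 were on the higher side (41.6% of all probes were). An unadjusted p under 0.05 by limma was seen for 18, all higher, against 1.51% of probes. The median was 0.20 against -0.03 for all probes. Since the list was chosen with earlier results of these data known, these shares describe it and do not test it. The targets were on the higher side in 9 of 10 at 10 min and 55 min and in 8 at 6h50min. Of all probes, 51.9%, 48.5% and 50.3% were. Medians of the targets at these times were 0.12, 0.38 and 0.51, and those of the restraining genes 0.02, 0.13 and -0.01. At 24 h none of the 9 restraining genes and 10 targets was on the higher side, where 49.1% of all probes were. Their medians were -0.17 and -0.31 where that of all probes was 0, and none was called. Over all 48, 0 were called by limma at 10 min, 55 min, 6h50min and 24 h, and 1, 7, 5 and 3 had an unadjusted p under 0.05, where 1.83%, 5.09%, 7.44% and 3.61% of all probes had. EGF itself, NRG3, ERBB4 and SPRED3 did not pass the filter on dim signals.

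**Figure D3:**
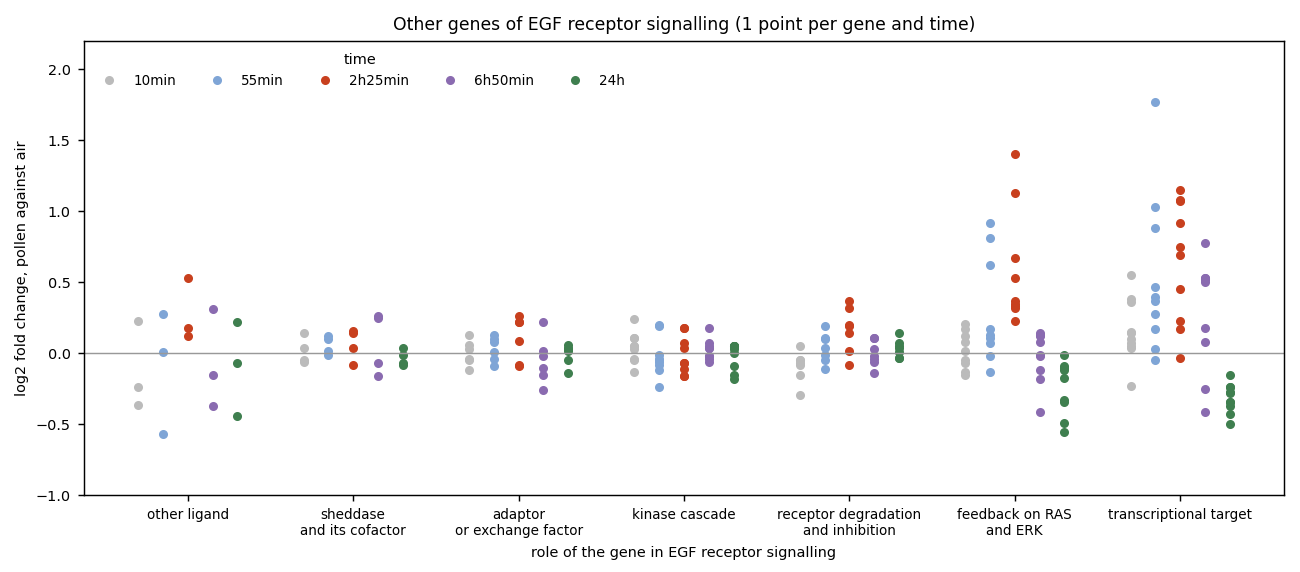
Log2 fold change of pollen against air (y axis) for 48 other genes of EGF receptor signalling by role (x axis), with 1 point per gene and colours for time. Genes that restrain RAS and ERK lie between 0.23 and 1.40 at 2h25min and below 0 at 24 h, and the kinase cascade stays between -0.24 and 0.24 at all times.

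The genes whose means over the 10 groups were most like those of the ligands, among 14645 measured on all arrays, were given by Pearson's r as a description. For EREG these were DLC1 (0.976), C11orf96 (0.963) and ZFP36L2 (0.947). For AREG they were DLC1 (0.967), MAP2K3 (0.937) and NR3C1 (0.934). For HBEGF they were TLR4 (0.922), PAPPA (0.91) and TGIF1 (0.905), and for ERRFI1 KLF10 (0.986), BCL6 (0.963) and NCOA7 (0.963). The points share arrays, slides and scaling, and only 10 of them enter each value.

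**Figure D4:**
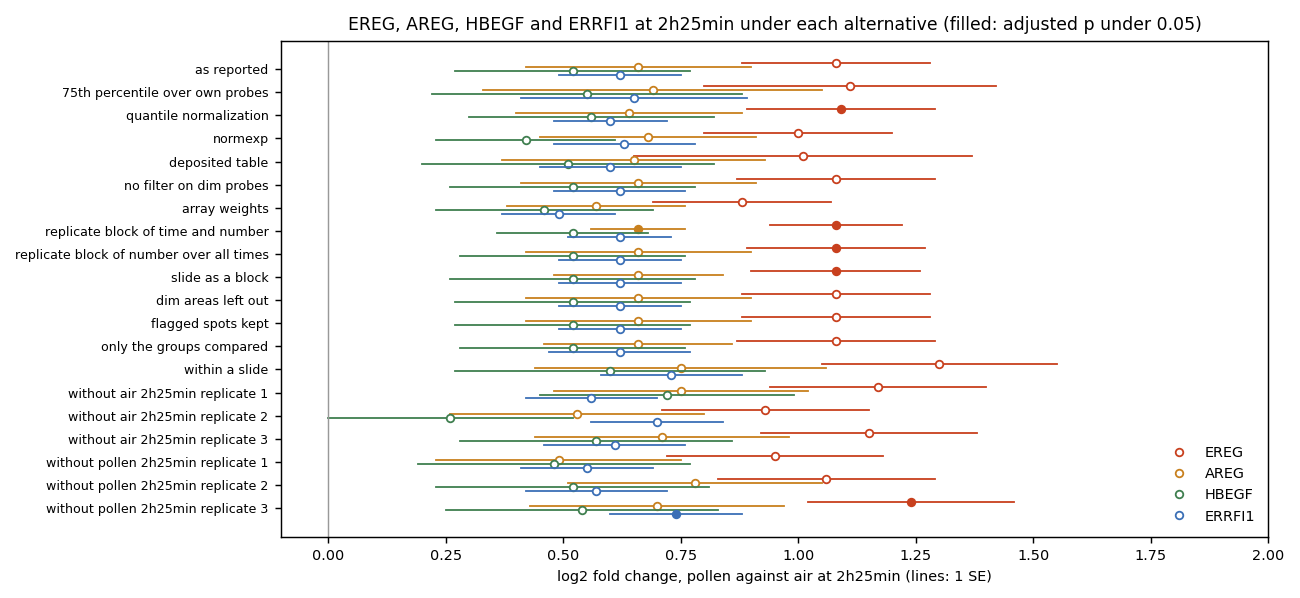
Log2 fold change of pollen against air at 2h25min (x axis, lines for 1 SE) for EREG, AREG, HBEGF and ERRFI1 under each processing alternative (y axis), filled where the adjusted p was under 0.05. All values lie above 0, EREG between 0.88 and 1.30, and its filled points show that its call changes with the setting.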

How the data were processed

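The genes and lists were chosen with earlier results of these data known. The authors deposited the intensity of each spot, corrected within the array for background and trend by Agilent Feature Extraction 11.0.1.1, and a table of log2 values that limma made per the methods. Probe positions are on hg19. In R 4.3.3, spots marked uneven or outlier were dropped and spots of a probe averaged. Log2 values were then centred on the 75th percentile of the 33873 probes that both array designs carry, which ran from 578.36 to 2111.2. The arrays give brightness, and their number limits the precision.

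A probe was tested if it was well above background in every array of 1 or more groups, with limma 3.58.1 (group means over 30 arrays, eBayes, 20 residual and 2.34 prior degrees of freedom, Benjamini-Hochberg over 32141 probes). Calls required an adjusted p under 0.05 and at least 1.1-fold, or for differences of pollen effects only the former. A gene is shown by its brightest probe. All 10 genes were described at every time, pathway genes where called (at most 3 per role and time), and the 3 symbols most like EREG, AREG, HBEGF and ERRFI1. Promoters and gene symbols are from RefSeq (GRCh38.p14).

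Same-numbered pollen and air samples deviated together at 10 min (r 0.296 to 0.346), 2h25min (0.405 to 0.516) and 24 h (0.22 to 0.494), and not throughout at 55 min (-0.12 to 0.348) or 6h50min (0.052 to 0.115). Numbers were taken to pair samples at 10 min, 2h25min and 24 h, and the methods run mock and pollen side by side. The reported fit does not use these pairs, which enter only in the alternative with a replicate block. The deposited log2 columns follow their own array's brightness, except at 24 h, where all 6 follow another array of their group. The fits were tested on simulated data. Alternatives were other scalings (own probes, quantile), normexp with offset 50, the deposited table, no filter, array weights, replicate and slide blocks, dim areas or flags, and leaving out each array. They were also run on the pathway list, which was decided after seeing the data.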

Additional observations from a re-analysis of the deposited data

How the results depend on the processing

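For pollen against air, 0 of the 9 genes were called under every alternative at 10 min, 55 min, 6h50min and 24 h. At 2h25min 0 were called as reported, 2 (EREG and AREG) with the paired fit (replicate block of time and number), 1 (EREG) with the number as a replicate block over all times, with quantile scaling or with the slide as a block, and 0 to 2 when 1 array was left out. The replicate blocks changed no call of the 9 genes at another time of pollen against air. EREG stayed at 0.88 to 1.30, AREG at 0.49 to 0.78, HBEGF at 0.26 to 0.72 and ERRFI1 at 0.49 to 0.74 over 19 alternatives.

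Of the pathway list, 2 were called at 2h25min as reported, 4 with normexp, the replicate block of time and number or the slide as a block, 1 without a filter on dim probes, and 0 with the percentile over own probes, the deposited table or only the 2 groups compared. Leaving out 1 array gave 0 to 3.

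With air, 55 min against 10 min gave 0, and 2 with array weights. From 2h25min to 6h50min 1 was called, 2 with normexp or array weights, 0 with own probes, the deposited table, no filter or only the groups compared, and 0 to 2 leaving out 1 array. From 6h50min to 24 h 3 were called, 1 with own probes or no filter, and 1 to 2 leaving out 1 array. From 10 min to 24 h 3 were called, 1 with own probes, normexp, the deposited table or the slide as a block, and 1 to 3 leaving out 1 array.

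With pollen, 55 min against 10 min gave 3, 1 with the deposited table or no filter, 0 with own probes, the slide as a block or only the groups compared, and 1 to 2 leaving out 1 array. From 2h25min to 6h50min 4 were called, 1 with own probes or the deposited table, and 2 to 5 leaving out 1 array. From 6h50min to 24 h 4 were called, 2 with normexp, 0 with own probes or the deposited table, and 3 to 5 leaving out 1 array. From 10 min to 24 h 3 were called, 1 with the deposited table, the slide as a block or only the groups compared, 0 with own probes, and 1 to 3 leaving out 1 array. The cause of these changes was not tested.

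Of values called as reported, 1 turned its sign, BTC from 6h50min to 24 h with air, from 0.66 to -0.17 with normexp, which moved the median of all probes by -0.36 in that step. All other turned signs were of values not called in either setting. For pollen against air at 55 min the percentile over own probes gave AREG -0.22, BTC -0.31, ERBB2 -0.35 and ERRFI1 -0.14, the deposited table EREG -0.13, AREG -0.03, BTC -0.11 and ERBB2 -0.21, and array weights EGFR 0.03. At 10 min BTC had -0.10 with normexp and -0.03 in the deposited table, where ERBB2 at 2h25min had -0.01. At 6h50min AREG had -0.11 with normexp and -0.13 in the deposited table, and BTC 0.04 with array weights. At 24 h EREG and AREG had 0.05 each with array weights. For the change of the pollen effect from 10 min to 55 min, the deposited table gave EREG -0.06 and HBEGF -0.11, and own probes HBEGF -0.01. From 55 min to 2h25min HBEGF had 0.36 with own probes, 0.50 in the deposited table, 0.04 with the slide as a block and 0.13 within a slide. From 6h50min to 24 h ERRFI1 had 0.01 with quantile scaling, 0.16 with normexp and 0.20 in the deposited table.

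Leaving out 1 array also turned signs near 0. For pollen against air at 10 min the ranges were -0.21 to 0.12 for TGFA, -0.03 to 0.30 for BTC, -0.07 to 0.08 for EGFR and -0.13 to 0.01 for ERBB2. At 55 min they were -0.09 to 0.47 for AREG, -0.07 to 0.31 for BTC and -0.03 to 0.11 for ERBB2. At 2h25min they were -0.28 to 0.09 for TGFA, -0.06 to 0.10 for EGFR, -0.07 to 0.10 for ERBB2 and -0.30 to 0.11 for ERBB3. At 6h50min they were -0.07 to 0.19 for AREG, -0.20 to 0.01 for TGFA, -0.13 to 0.09 for BTC, -0.05 to 0.01 for EGFR and -0.10 to 0.03 for ERRFI1. At 24 h they were -0.31 to 0.01 for EREG, -0.28 to 0.02 for AREG, -0.42 to 0.06 for TGFA and -0.02 to 0.11 for EGFR. The change of the pollen effect ranged from -0.34 to 0.12 for HBEGF from 55 min to 2h25min, and from 6h50min to 24 h from -0.16 to 0.25 for HBEGF and from -0.09 to 0.04 for ERRFI1.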
